A study of Mus musculus with 12 samples.

Results

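The aminoacyl-tRNA synthetase genes are the 36 genes of a named list, 20 whose enzymes charge tRNA in the cytosol and 16 whose enzymes charge tRNA in mitochondria. The rule for membership is a gene's name and uses no measured value, and all 36 were found, through 75 probes, among 26897 genes named on the array. Total RNA of mouse embryonic stem (ES) cells had been hybridised to 12 one-colour Agilent arrays, with 1 array for each combination of cell line, arm and day. The lines carry a reporter for a germ cell gene, Stella-GFP or Dazl-GFP, and the labels call them independent. Irradiated embryonic fibroblasts served as feeder cells in both arms, and both media held leukemia inhibitory factor (LIF). The FBS arm grew in DMEM with 15% fetal bovine serum (FBS), and the serum-free arm grew in B27N2 medium. The labels call the second arm the 2i condition and name 2 inhibitors for the 2i experiments, 1 µM of PD0325901, against MEK, and 5 µM of Kenpaullone, against GSK3β. RNA was taken at days 0, 3 and 10, which gives 6 groups of 2 arrays, 1 per line. Whether cells of the FBS arm were given the inhibitors, what the serum-free cells had been given by day 0, and whether feeder cells were removed before RNA was extracted are not stated in the labels.

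An aminoacyl-tRNA synthetase joins an amino acid to its tRNA, the step that sets which amino acid a codon yields. Most cytosolic and mitochondrial enzymes come from separate nuclear genes, and 8 of the cytosolic genes here (Dars, Eprs, Iars, Kars, Lars, Mars, Qars and Rars) encode enzymes held in the multi-synthetase complex. ATF4 is a transcription factor that is made when charged tRNA runs short or the cell is otherwise stressed, and it acts on genes of amino acid uptake, synthesis and tRNA charging. A group of 12 cytosolic synthetase genes is often listed among its targets (Aars, Cars, Eprs, Gars, Iars, Lars, Mars, Nars, Sars, Tars, Wars and Yars).

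Between 62.5% and 72.7% of an array's spots were well above background, with a 75th percentile of 454 to 947 intensity units. The probe used for each of the 36 members was well above background on all 12 arrays, and no spot was saturated. Levels are log2 signals over the 75th percentile of the same array, and a change is a difference of such levels, fitted with limma over all 12 arrays with the line as a block. A gene is called when its adjusted p (Benjamini-Hochberg, 20791 genes tested) is under 0.05, and each member described as changed had the same sign in both lines. Each group has 1 array of each line, and the block takes out the constant difference between the lines. The p-values rest on how far that difference varied from group to group, pooled over the 6 groups. Precision is limited by the few arrays. All 8 ES cell markers were well above background on every array, with a summed level of 382 to 682 times the 75th percentile. The 17 fibroblast markers were too (25.9 to 128 times), and the summed level of 8 macrophage markers was 0.997 to 8.29 times and that of 8 primitive endoderm markers 0.997 to 9.78 times. In RNA of whole cultures, fewer cells of a type and less RNA per cell cannot be told apart.

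The arms differed in few synthetase genes. At day 0, 1 of 36 members was higher in the serum-free arm, beside 1.01% of all genes, and 0 were lower, beside 0.861%. At day 3, 6 members were lower, beside 13.7% of all genes, and 0 were higher, beside 8.75%. At day 10, 2 members were lower, beside 3.72% of all genes, and 1 was higher, beside 2.06%. At an unadjusted p under 0.05 the limma fit gave 9, 9 and 11 members at the 3 days, beside 4700, 8186 and 5142 of all 20791 genes. Of these members 1, 6 and 3 passed over all genes. The members called were Cars2 at days 0 and 10, Aars, Wars, Farsa, Aars2, Ears2 and Sars2 at day 3, and Cars and Nars at day 10. Each call is that of 1 probe per gene, and for Farsa another probe passed in the opposite direction.

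**Figure D1:**
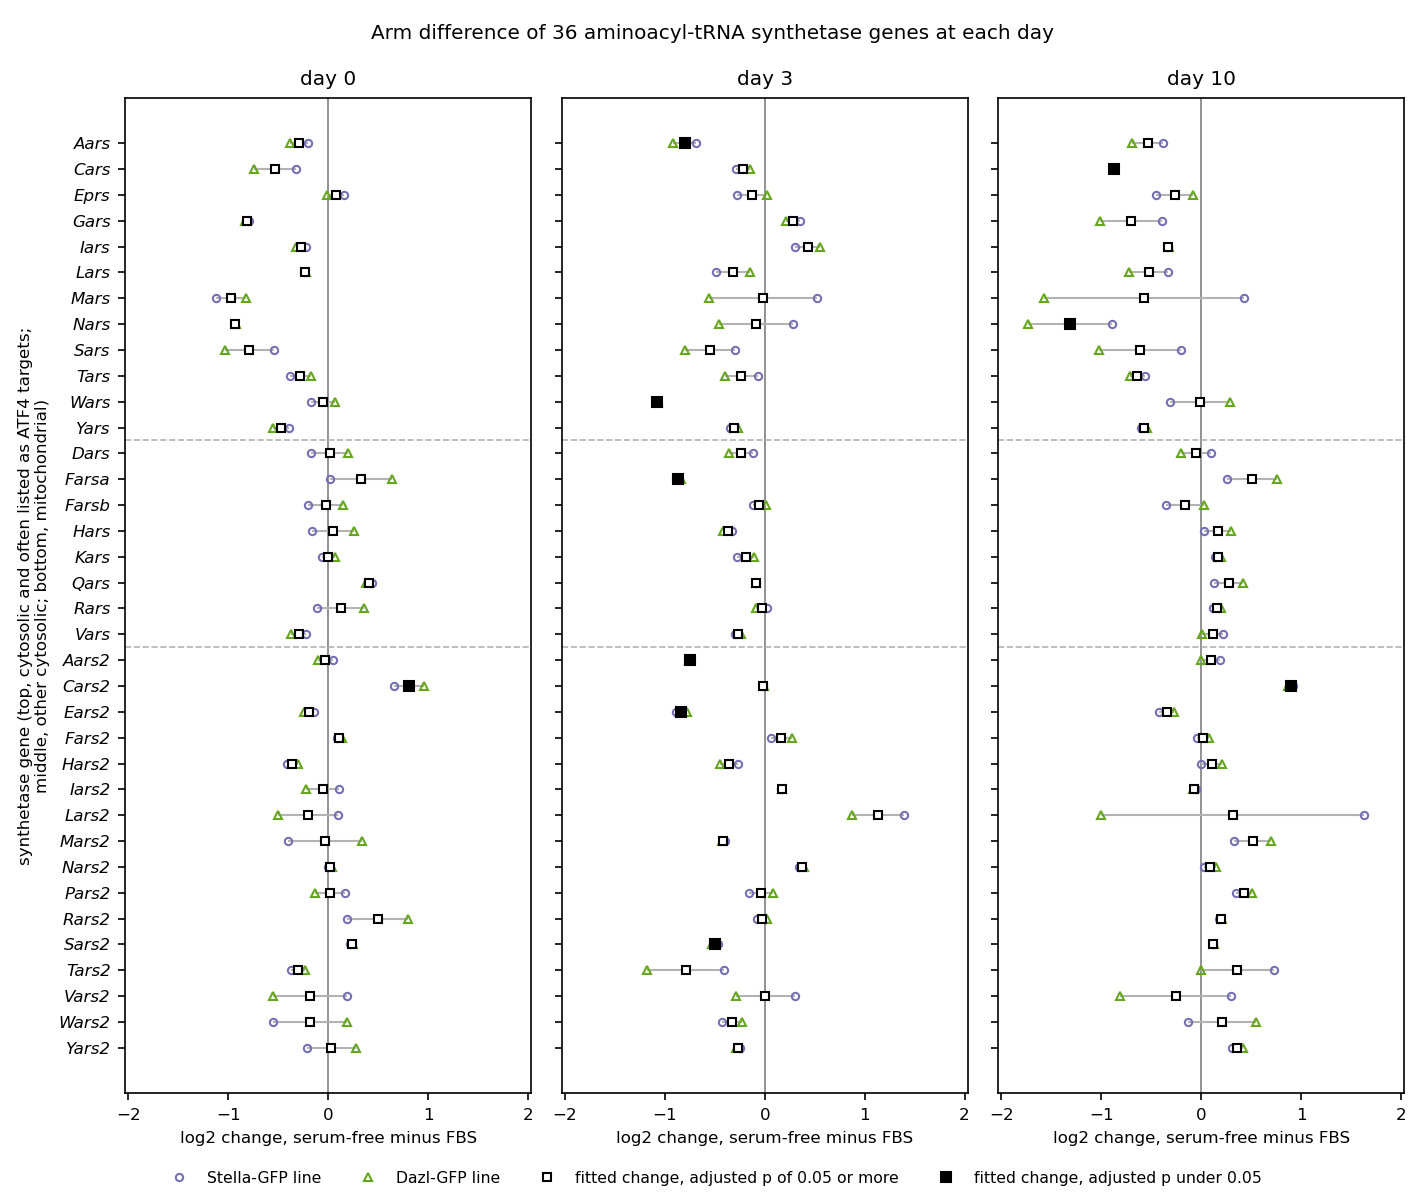
Log2 change of the 36 synthetase genes, serum-free minus FBS arm, at days 0, 3 and 10; open circles mark Stella-GFP, open triangles Dazl-GFP and squares the fitted change, filled where the adjusted p is under 0.05. The squares of the upper block of 12 genes lie to the left of 0 at day 10, from -1.31 for Nars to -0.01 for Wars. Among their marks of single lines, Mars in Stella-GFP and Wars in Dazl-GFP lie to the right.

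Among the 12 cytosolic genes often listed as ATF4 targets, levels at day 10 were on the low side in the serum-free arm. By the probes used, all 12 fitted changes were below 0, with Wars nearest to it at -0.01. Of them 2 were called, beside 3.72% of all genes called lower, and the median was -0.57, beside 0.11 over all genes. Among their other probes, those above 0 were of Wars (0.16), Lars (0.19) and Aars (0.35), and the rest were below 0. At day 0, 11 of the 12 changes were below 0 with a median of -0.38 (all genes -0.02). There 0 were called by limma, beside 0.861% of all genes called lower, with Gars, Nars, Yars, Cars and Sars at an unadjusted p under 0.05. At day 3 the median was -0.22, the same as over all genes, and it turned to 0.02 under quantile normalization. At that day 2 were called, beside 13.7% of all genes called lower. At day 10 the median lay between -0.67 and -0.48 under the other processing choices tried and between -0.80 and -0.35 when each array was left out in turn.

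Nars, which charges asparagine tRNA, had the largest fitted change among the members called. Its level in the FBS arm at day 10 was 2.84 in the Stella-GFP line and 3.83 in the Dazl-GFP line, against 1.95 and 2.10 in the serum-free arm. The groups did not overlap, and the Dazl-GFP array of the FBS arm was the highest of all 12. The serum-free arm was lower by 2.48-fold (log2 -1.31, SE 0.24, adjusted p = 0.0274). At day 0 the levels were 2.88 and 3.39 in FBS against 1.94 and 2.47 in serum-free medium, a change of -0.93 that did not pass (SE 0.24, adjusted p = 0.0915). At day 3 the levels overlapped, at 1.74 and 2.71 in FBS and 2.02 and 2.25 in serum-free medium.

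Cars charges cysteine tRNA. Its level at day 10 was 4.18 and 4.36 in FBS, in the order Stella-GFP and Dazl-GFP, against 3.31 and 3.48 in serum-free medium. Both FBS arrays stood above every other array for this gene, and the serum-free arm was lower by 1.83-fold (log2 -0.87, SE 0.16, adjusted p = 0.0273). At day 0 the FBS arrays, at 3.63 and 3.85, lay above the serum-free ones, at 3.30 and 3.11, without passing (-0.53, SE 0.16, adjusted p = 0.121). The other 2 probes of Cars gave day 10 changes of -0.66 and -0.95.

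Wars charges tryptophan tRNA. Its level at day 3 was 3.11 and 3.01 in FBS against 2.02 and 1.94 in serum-free medium, the 2 lowest of its 12 values. The serum-free arm was lower by 2.11-fold (log2 -1.08, SE 0.20, adjusted p = 0.0111), and a second probe gave -0.50. The arms overlapped at day 10, at 2.89 and 2.76 against 2.58 and 3.05. The fitted change at day 10 was -0.01.

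Aars, for alanine, was at 6.12 and 6.42 in FBS at day 3 and at 5.43 and 5.50 in serum-free medium. The groups were apart, and the serum-free arm was lower by 1.74-fold (log2 -0.80, SE 0.19, adjusted p = 0.0261). At day 10 the levels were again apart, 6.18 and 6.55 against 5.79 and 5.86, with a change of -0.54 that did not pass (SE 0.19, adjusted p = 0.145). The other 5 probes of Aars gave -0.76 to -0.09 at day 3. One of those 5 carries the name of another gene, Exosc6, in the scanner files.

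The other genes of this group did not pass by the probes used at any day in the arm comparisons. Gars, for glycine, had changes of -0.81 at day 0 (adjusted p = 0.065), 0.28 at day 3 and -0.71 at day 10 (adjusted p = 0.0645). The second probe of Gars gave -0.39, -0.62 and -0.10 at the 3 days. Yars, for tyrosine, had -0.47, -0.31 and -0.57 at the 3 days, with an adjusted p of 0.0605 at day 10. For Tars (threonine) the day 10 change was -0.64, for Sars (serine) -0.62, for Mars (methionine) -0.57, for Lars (leucine) -0.52, for Iars (isoleucine) -0.33 and for Eprs, whose enzyme charges glutamate and proline tRNA, -0.27. Mars went opposite ways in the lines at day 10, with 0.43 in Stella-GFP and -1.57 in Dazl-GFP. Sars had -0.20 and -1.03 in the same order, and the difference between the lines in these changes was not tested.

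The promoters of these genes were searched because ATF4 and its partners are known to bind an element with the core TGATGNAA, or TTNCATCA on the other strand. RefSeq promoter windows (build GRCm38.p6, 250 bases before to 50 after a transcription start) were found for 27 of the 36 members and searched on both strands. The core was present in 5 of the 8 genes of the group that had a window, in 0 of 5 other cytosolic genes and in 0 of 14 mitochondrial genes. The remaining 4 genes of the group, Cars, Lars, Nars and Wars, had no window and were not searched. Cars and Nars are the genes of the group called at day 10, and Wars was called at day 3. The core stood in a window of 4.51% of all genes listed by RefSeq, and in 3.97% of all windows. Because the group was drawn from lists of ATF4 targets, its share may not be independent of the element searched for. Stretches around the start of the 5 genes are shown because they hold those matches, in capitals, and Farsa is shown as a cytosolic gene without one. Each runs 5′ to 3′ on the strand of the gene, from 70 bases before to 30 after the start, and from 120 before for Aars.
Aars, chr8:111033722-111033871, plus strand: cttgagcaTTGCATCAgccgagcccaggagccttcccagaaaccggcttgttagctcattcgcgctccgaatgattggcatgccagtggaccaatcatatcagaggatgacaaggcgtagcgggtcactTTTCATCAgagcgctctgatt
Gars, chr6:55037931-55038030, plus strand: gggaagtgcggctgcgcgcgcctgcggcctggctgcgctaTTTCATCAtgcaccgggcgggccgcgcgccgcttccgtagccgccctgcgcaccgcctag
Iars, chr13:49682060-49682159, plus strand: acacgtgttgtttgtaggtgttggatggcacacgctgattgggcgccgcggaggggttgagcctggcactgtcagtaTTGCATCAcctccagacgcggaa
Tars, chr15:11399629-11399728, minus strand: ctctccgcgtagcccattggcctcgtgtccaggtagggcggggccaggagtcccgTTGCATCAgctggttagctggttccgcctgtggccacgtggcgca
Yars, chr4:129189833-129189932, plus strand: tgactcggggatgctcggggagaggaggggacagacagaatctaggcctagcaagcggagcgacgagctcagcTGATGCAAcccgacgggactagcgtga
Farsa, chr8:84856916-84857015, plus strand: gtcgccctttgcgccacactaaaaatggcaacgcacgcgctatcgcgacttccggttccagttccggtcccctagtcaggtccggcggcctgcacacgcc

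The matches began at -112 and 10 from the start in Aars, at -30 in Gars, 8 in Iars, -15 in Tars and 4 in Yars, where 1 is the first transcribed base. In these 5 genes the day 10 changes ran from -0.71 (Gars) to -0.33 (Iars), and in the 3 genes of the group with a window and no match they were -0.62 (Sars), -0.57 (Mars) and -0.27 (Eprs). By the probes used, Gars, with a match, had the lowest value of the 8, and Iars, with a match, lay between Mars and Eprs. A match describes letters in a window and not a bound site, and no binding was measured here.

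The 22 genes of an amino acid stress response list, which holds Atf4 and many of its known targets but no synthetase, differed between the arms as well. In the serum-free arm 2, 10 and 12 of the 22 were lower at days 0, 3 and 10, beside 0.861%, 13.7% and 3.72% of all genes. At those days 0 were higher, beside 1.01%, 8.75% and 2.06% of all genes. Their median changes were -0.50, -0.77 and -1.12, against -0.02, -0.22 and 0.11 over all genes. At day 10 Atf4 was lower by 1.35 on the log2 scale (a change of -1.35, SE 0.20, adjusted p = 0.0155), Trib3, a pseudokinase induced by ATF4, had -3.67 (SE 0.24, adjusted p = 0.00396), and Chac1, which degrades glutathione, had -4.38 (SE 0.42, adjusted p = 0.00594). Asns, which makes asparagine, did not pass at day 10, with -0.56 (SE 0.19, adjusted p = 0.129). The core TGATGNAA stood in the windows of 7 of the 18 listed genes that had one (38.9%), Trib3, Asns and Chac1 among them.

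**Figure D2:**
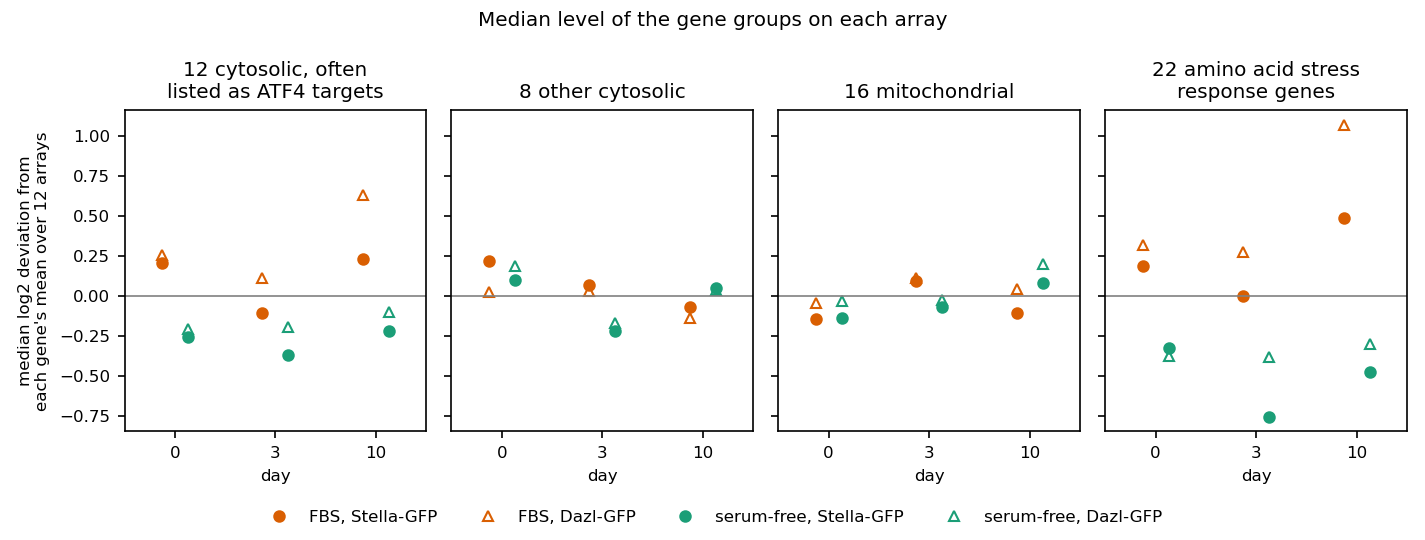
Median log2 deviation of 3 groups of synthetase genes and of the amino acid stress response list on each of the 12 arrays, relative to each gene's mean over the arrays, by day; orange is FBS, green serum-free, filled circles Stella-GFP and open triangles Dazl-GFP. The 12 genes often listed as ATF4 targets lie at 0.23 and 0.63 in FBS at day 10 and at -0.22 and -0.10 in serum-free medium, while the 16 mitochondrial genes stay between -0.14 and 0.20 on every array.

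By array, the median deviation of the 12 genes from their means over all arrays was 0.21 and 0.26 in FBS at day 0, -0.11 and 0.12 at day 3 and 0.23 and 0.63 at day 10, in the order Stella-GFP and Dazl-GFP. In serum-free medium it was -0.26 and -0.21, -0.37 and -0.19, and -0.22 and -0.10. Each serum-free array lay below each FBS array of its day, and the Dazl-GFP array of the FBS arm at day 10 stood highest, at 0.63. The stress response list had its highest median, 1.07, on that same array.

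The 8 other cytosolic genes (Dars, Farsa, Farsb, Hars, Kars, Qars, Rars and Vars) had median arm changes of 0.03, -0.22 and 0.16 at days 0, 3 and 10, close to those over all genes, and the day 0 value turned to -0.07 under quantile normalization. Farsa, the catalytic subunit of the phenylalanine enzyme, was the member of this group that was called. At day 3 its level was 3.74 and 3.52 in FBS against 2.85 and 2.68 in serum-free medium. The groups were apart, and the serum-free arm was lower by 1.82-fold (log2 -0.86, SE 0.20, adjusted p = 0.0233). At day 10 the order was the other way round, with 3.15 and 2.63 in FBS and 3.41 and 3.39 in serum-free medium, without passing (0.51, SE 0.20, adjusted p = 0.174). The other probes of Farsa gave -0.59 (adjusted p = 0.125) and 1.19 (adjusted p = 0.00546, limma over all probes) at day 3. By the last of these, the one named through a RefSeq accession, Farsa was higher in the serum-free arm, so its direction at day 3 depends on the probe.

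Farsb, the other subunit of the same enzyme, had arm changes of -0.03, -0.05 and -0.16. Hars (histidine) had -0.37 at day 3 (adjusted p = 0.166), Vars (valine) -0.27, Dars (aspartate) -0.24, Kars (lysine) -0.19, Qars (glutamine) -0.09 and Rars (arginine) -0.03, none of them called by the probes used. Another probe of Hars passed as higher at day 3 (0.76, adjusted p = 0.0155, limma over all probes). The other probes of Dars gave 0.89, 0.67 and -0.28 at day 3 and did not pass. Whether the subunits of the phenylalanine enzyme differ from each other was not tested.

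By the probes used, none of the 8 genes of the multi-synthetase complex was called in the arm comparisons. At day 3 other probes of 3 of them passed as higher in serum-free medium (limma over all probes), with 0.69 for Eprs (adjusted p = 0.0306), 0.68 for Iars (adjusted p = 0.0393) and 1.78 for Lars (adjusted p = 0.0192). Their medians were 0.01, -0.11 and -0.16 at days 0, 3 and 10, and those of the 12 cytosolic genes outside the complex were -0.30, -0.29 and -0.55, with 3 lower at day 3 and 2 at day 10, where 13.7% and 3.72% of all genes were. The difference between the groups was not tested. Of the 8 complex genes 4 are also on the list of ATF4 targets (Eprs, Iars, Lars and Mars). By enzyme class, the 18 genes of class I had medians of -0.18, -0.15 and 0.05, and the 17 of class II had -0.03, -0.24 and 0.09, with Eprs, which belongs to both, left out.

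Among the 16 mitochondrial genes, Cars2 was higher in the serum-free arm at days 0 and 10, and Aars2, Ears2 and Sars2 were lower at day 3. Their medians were -0.03, -0.15 and 0.16 at days 0, 3 and 10, beside -0.02, -0.22 and 0.11 over all genes. At day 10, 13 of the 16 changes were above 0 and 1 was called. The median at day 0 turned to 0.11 with the authors' table to 0.05 with normexp background correction and to 0.13 with the slide as a block.

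Cars2 charges cysteine tRNA in mitochondria. In FBS its level was 1.23 and 1.09 at day 0 and 1.15 and 1.07 at day 10, while in serum-free medium it was 1.89 and 2.04 at day 0 and 2.07 and 1.94 at day 10. Both arms met at day 3, at 1.61 and 1.55 in FBS and 1.59 and 1.54 in serum-free medium. The serum-free arm was higher by 1.75-fold at day 0 (log2 0.81, SE 0.15, adjusted p = 0.0477) and by 1.86-fold at day 10 (log2 0.90, SE 0.15, adjusted p = 0.0206), with -0.02 at day 3. A second probe gave 0.72, 0.12 and 0.67 at the 3 days. At day 10 the cytosolic gene for the same amino acid, Cars, was lower by a log2 change of -0.87, and the difference between the genes was not tested.

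Aars2 was at 2.52 and 2.82 in FBS at day 3 and at 1.77 and 2.07 in serum-free medium, and the groups were apart. The serum-free arm was lower by 1.68-fold (log2 -0.75, SE 0.15, adjusted p = 0.0151), against -0.03 at day 0 and 0.10 at day 10. Ears2, which charges mitochondrial tRNA with glutamate, was at 1.98 and 2.09 in FBS at day 3 and at 1.09 and 1.31 in serum-free medium. It was lower by 1.79-fold (log2 -0.84, SE 0.16, adjusted p = 0.0119), and its second probe gave -0.66. Sars2 was at 1.56 and 1.62 in FBS at day 3 and at 1.10 and 1.09 in serum-free medium, lower by 1.41-fold (log2 -0.50, SE 0.14, adjusted p = 0.0382). All 3 genes were on the low side on both serum-free arrays of day 3.

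The remaining mitochondrial genes did not pass in the arm comparisons by the probes used. At day 3 another probe passed for Iars2 (1.93, adjusted p = 0.00515) and for Tars2 (-0.60, adjusted p = 0.0255), by limma over all probes. Tars2 had -0.79 at day 3 (SE 0.25, adjusted p = 0.0579). Lars2 had 1.13 at day 3 (SE 0.55, adjusted p = 0.163), with 1.39 in Stella-GFP and 0.88 in Dazl-GFP. Among the probes used, this was the highest fitted change of any member in the arm comparisons. At day 10 Lars2 went opposite ways in the lines, with 1.63 in Stella-GFP and -0.999 in Dazl-GFP. At day 10 the changes were 0.52 for Mars2, 0.43 for Pars2, 0.36 for Tars2 and for Yars2, 0.20 for Wars2 and for Rars2, 0.10 for Hars2, 0.09 for Nars2 and 0.02 for Fars2. Iars2 had -0.07 and Vars2 -0.26, the latter with opposite signs in the lines.

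**Figure D3:**
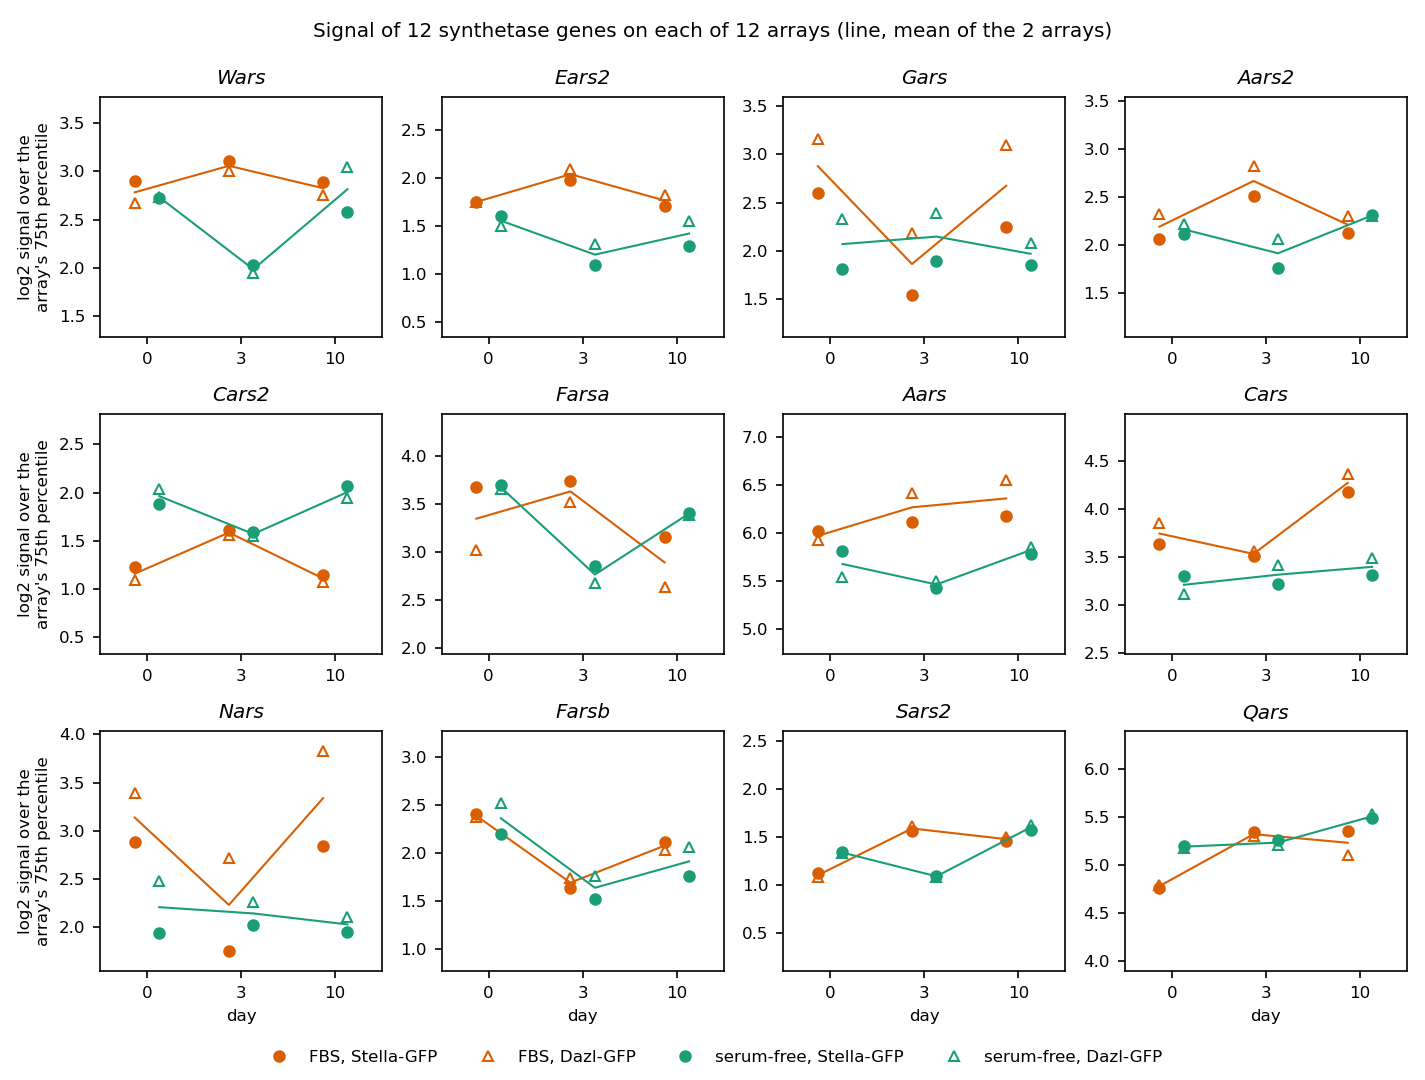
Level of 12 synthetase genes on each array (log2 signal over the 75th percentile of the array) at days 0, 3 and 10; orange is FBS, green serum-free, filled circles Stella-GFP, open triangles Dazl-GFP, and lines join the means of the 2 arrays. Each panel spans the same range of 2.5 log2 units. Wars is at 2.02 and 1.94 in serum-free medium at day 3, and Nars reaches 2.84 and 3.83 in FBS at day 10.

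The day 3 calls coincide with a difference in feeder and other cell markers. Of all genes, 13.7% were lower in the serum-free arm at day 3 and 8.75% were higher. At day 3, 13 of 17 fibroblast markers were lower in the serum-free arm (median -2.01), and their summed level was 79.5 to 128 times the 75th percentile in FBS and 25.9 to 32.1 times in serum-free medium. Of 8 macrophage markers 5 were lower and 1 was higher, with a summed level of 4.62 to 8.29 against 1.12 to 1.59 times, and 5 or 6 of the 8 were well above background on the serum-free arrays. Of 8 primitive endoderm markers 5 were higher in serum-free medium, with 1.12 to 1.30 against 3.02 to 7.77 times. No fibroblast marker fell to the background on any array. At day 10, 3 of 17 fibroblast markers were lower (median -0.43), beside 3.72% of all genes, at 55.5 to 74.1 against 33.4 to 54.3 times. At day 0, 2 were lower, beside 0.861% of all genes, at 61.9 to 62.1 against 48.3 to 55.1 times. Primitive endoderm markers summed to 1.69 to 2.86 times in FBS and 6 to 9.78 times in serum-free medium at day 0. All 8 of their changes were above 0, with a median of 1.42, and 1 was called higher, beside 1.01% of all genes. The part of these cells in the synthetase changes was not tested.

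The arrays lay on 3 slides, and only at day 3 did a slide hold both arms, as serum-free Dazl-GFP beside FBS Stella-GFP. Within that slide the day 3 changes were -1.17 for Wars, -1.06 for Farsa, -0.67 for Ears2, -0.62 for Aars, -0.47 for Sars2 and -0.45 for Aars2. The arms were apart at day 3 for each of these genes, so the signs within the slide were fixed in advance. That pair of arrays also differs in line, so these values cannot separate the slide, the line and the arm. With the slide as a block 0 of 36 members were called by limma in any arm comparison. At an unadjusted p under 0.05 that fit gave 1, 6 and 4 members at days 0, 3 and 10. Beside them were 2765, 6674 and 2419 of all 20791 genes. At day 3 the changes under that block ran from -1.28 (Wars, adjusted p = 0.0661) to -0.48 (Sars2, adjusted p = 0.203), with 0.00277 to 0.273 for Wars and 0.0216 to 0.52 for Sars2 over all alternatives, while 514 of all genes were higher and 911 lower. At days 0 and 10 the block left 0 of all 20791 genes called. Leaving out any 1 of the 4 arrays compared at day 3 or at day 10 also left 0 members called in that comparison, and leaving out any 1 of the 12 arrays left 0 at day 0.

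Over time in the FBS arm, by the probes used, 2 members fell from day 0 to day 3, beside 5.31% of all genes. With those probes 0 rose, beside 6.78%. Other probes also passed (limma over all probes). Aars was higher by 1.38 (adjusted p = 0.0216) and 2.19 (adjusted p = 0.0112). Its probes named through a RefSeq accession gave 0.30 and -0.11. Eprs (-0.81, adjusted p = 0.0464), Iars (-0.75, adjusted p = 0.0436) and Nars2 (-1.29, adjusted p = 0.0273) were lower. Gars fell by 1.02 on the log2 scale, a change of -1.02 (SE 0.18, adjusted p = 0.0147), from 2.60 and 3.16 to 1.54 and 2.18. The groups were apart, and the level at day 10 was 2.25 and 3.1. The second probe of Gars gave 0.31 for the same comparison, so that the probes disagree in direction. Farsb fell by 0.69 (a change of -0.69, SE 0.17, adjusted p = 0.0379), from 2.40 and 2.37 to 1.63 and 1.74. Qars, for glutamine, went from 4.76 and 4.80 to 5.34 and 5.30, without passing (0.54, SE 0.15, adjusted p = 0.055). Nars had -0.91 (adjusted p = 0.0526) and Sars2 0.49 (adjusted p = 0.0591). With the slide as a block, Gars had -0.84 (adjusted p = 0.0784) and Farsb -0.76 (adjusted p = 0.0955), and the Dazl-GFP arrays of slide 1 gave -0.98 and -0.63. Over all alternatives the adjusted p ran from 0.00227 to 0.339 for Gars and from 0.0116 to 0.52 for Farsb. In the same comparison 1 of 17 fibroblast markers was higher (median 0.56) and 2 of 8 macrophage markers were (median 1.11), and their part was not tested. Leaving out either FBS array of day 3 left 0 members called, and leaving out any other array left 1.

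From day 0 to day 10 in FBS 0 members were called by limma, beside 7.51% of all genes that rose and 5.41% that fell. In that fit 7 members had an unadjusted p under 0.05, beside 5924 of all 20791 genes. Cars, with the smallest adjusted p, had 0.53 (SE 0.16, adjusted p = 0.0757), and Tars2 had -0.63 (adjusted p = 0.151). Leaving out the FBS Dazl-GFP array of day 0 gave 1 member called. With all probes tested separately 6 members passed, all as higher. Aars passed by 3 probes, from 2.15 to 2.58, 1 of them well above background on only 4 arrays. Iars had 1.52, Qars 1.29, Iars2 1.17, Dars 1.05 and Hars 0.86. None of these probes was named through a RefSeq accession. Probes so named did not pass, with 0.39 and 0.33 for Aars, 0.11 and 0.37 for Iars and 0.45 and 0.03 for Qars. They gave 0.43 for Iars2, -0.06 and -0.01 for Dars and -0.32 for Hars. The share of all genes counted by any probe is not given here. Of the 12 genes often listed as ATF4 targets 10 changes were above 0, with a median of 0.22. That median was -0.02 in the Stella-GFP line and 0.43 in the Dazl-GFP line, and the difference between the lines was not tested. The stress response list had 7 of 22 members higher at day 10 than at day 0 in FBS and 0 lower (median 0.57), with Slc7a11, a cystine transporter, at 4.32 (SE 0.54, adjusted p = 0.00404).

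In the serum-free arm, by the probes used, 3 members fell from day 0 to day 3, beside 8.06% of all genes. With those probes 0 rose, beside 5.89%. By limma over all probes, another probe of Aars was higher (1.08, adjusted p = 0.0395) and another of Tars2 lower (-0.54, adjusted p = 0.0469). The probes of Aars named through a RefSeq accession gave -0.21 and 0.19. Farsa fell by 0.91 (a change of -0.91, SE 0.20, adjusted p = 0.028), from 3.69 and 3.65 to 2.85 and 2.68. Farsb fell by 0.72 (a change of -0.72, SE 0.17, adjusted p = 0.0314), from 2.20 and 2.52 to 1.52 and 1.76, and it has 1 probe. For Farsa the other probes gave -0.65 (adjusted p = 0.127) and 0.45 (adjusted p = 0.113, limma over all probes), so its direction depends on the probe here too. Wars fell by 0.75 (a change of -0.75, SE 0.20, adjusted p = 0.0448), from 2.73 and 2.74 to 2.02 and 1.94. With the slide as a block Farsa and Farsb remained called (adjusted p = 0.0457 and 0.0454), and Wars did not (adjusted p = 0.0674). Within slide 3, which held the Stella-GFP arrays of this arm, the changes were -0.84, -0.68 and -0.70. Over all alternatives the adjusted p ran from 0.00771 to 0.444 for Farsa, from 0.0149 to 0.505 for Farsb and from 0.0185 to 0.56 for Wars. In the same comparison 8 of 17 fibroblast markers were lower (median -1.07), and of 8 macrophage markers 1 was lower and 2 were higher (median -1.09). Their part in the fall of these members was not tested. Leaving out any of the 4 serum-free arrays of days 0 and 3 left 0 called, either FBS array of day 3 left 1, and either FBS array of day 0 gave 6.

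By day 10 the serum-free arm had 0 members called against day 0 by limma, beside 2.19% of all genes that rose and 3.16% that fell. In that fit 7 members had an unadjusted p under 0.05, beside 5430 of all 20791 genes. The nearest was Pars2, for proline in mitochondria, at 0.57 (SE 0.17, adjusted p = 0.0912). Wars was at 2.58 and 3.05, against 2.73 and 2.74 at day 0, and the fitted change was 0.08. Of the 12 genes often listed as ATF4 targets 7 changes were above 0 and 5 below, with a median of 0.11 beside 0.12 over all genes, and the median turned to -0.06 with the authors' table.

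**Figure D4:**
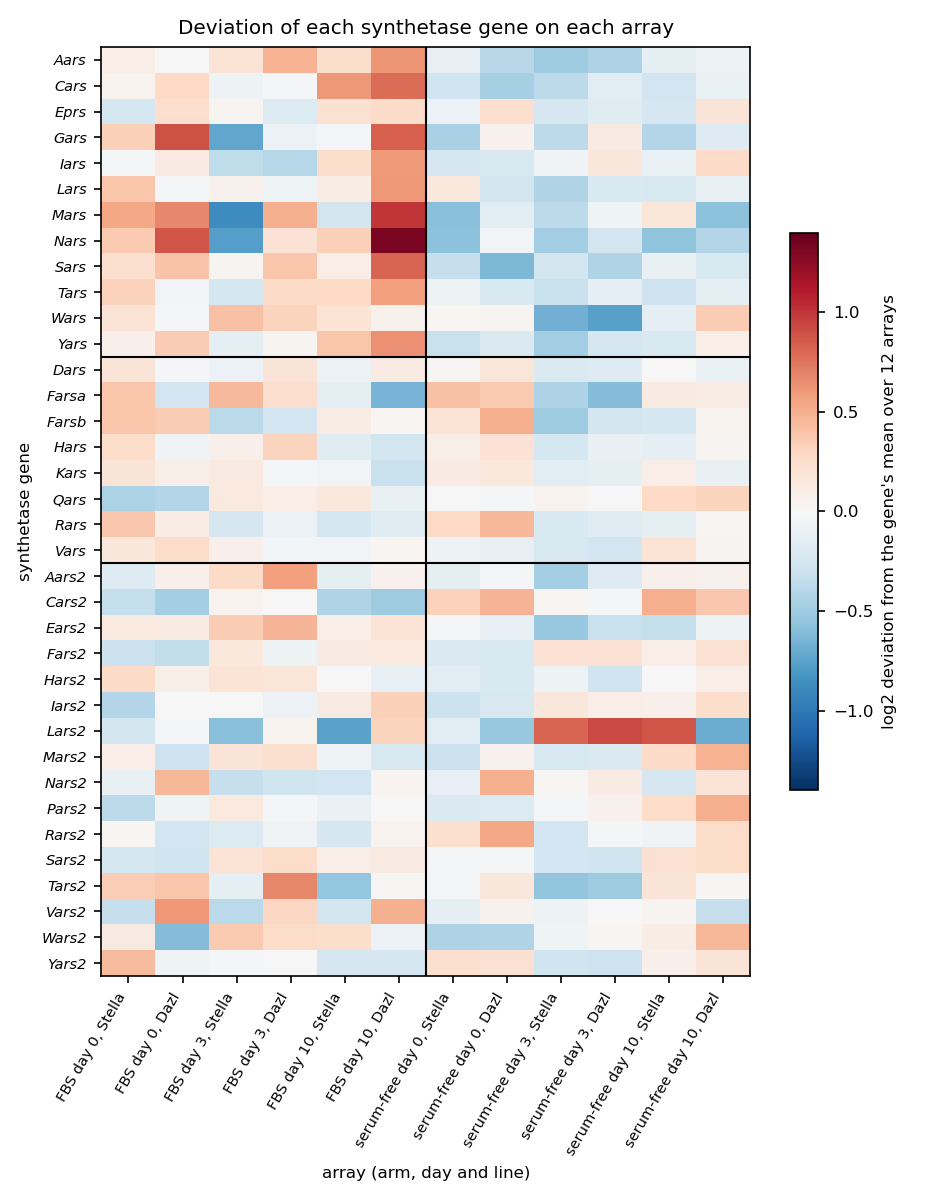
Deviation of each of the 36 synthetase genes on each array from its mean over the 12 arrays, in log2 units; columns are arrays by arm, day and line, rows are genes with cytosolic genes often listed as ATF4 targets on top, other cytosolic genes in the middle and mitochondrial genes below. On the FBS Dazl-GFP array of day 10 all 12 genes of the top block lie above their means, and the largest deviation is that of Nars, at 1.32.

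A direct test of whether the change over time differed between the arms called 0 members with limma. For the change to day 3, 0.452% of all genes were called higher and 1.19% lower. In that limma fit 10 members had an unadjusted p under 0.05, beside 5107 of all 20791 genes. The values were -1.19 for Farsa (SE 0.28, adjusted p = 0.0736), 1.10 for Gars (SE 0.25, adjusted p = 0.0697) and -1.03 for Wars (SE 0.28, adjusted p = 0.0896). For Farsa and Gars the direction depends on the probe. The second probe of Gars had changes to day 3 of 0.31 in FBS and 0.08 in serum-free medium. Of the other probes of Farsa, 1 had 0.11 in FBS and 0.45 in serum-free medium, and 1 had -0.01 and -0.65, the order of the probe used. Leaving out the FBS Stella-GFP array of day 0 gave 1 member called. For the change to day 10, 0.024% of all genes were called higher and 0.0481% lower. There 0 members had an unadjusted p under 0.05 by limma, beside 4074 of all 20791 genes. For Wars the day 10 value was 0.04 with an SE of 0.28.

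The arm difference itself was compared between days 10 and 3, a contrast added after the values were seen. In it 3 members were called higher, beside 6.08% of all genes, and 0 lower, beside 3.63%. Farsa had 1.37 by the probe used (SE 0.28, adjusted p = 0.0374), Cars2 0.91 (SE 0.21, adjusted p = 0.0429) and Aars2 0.85 (SE 0.22, adjusted p = 0.0498), each with the same sign in both lines. Wars, at 1.06 (adjusted p = 0.0526), and Gars, at -0.99 (adjusted p = 0.0502), did not pass. By its second probe the arm change of Gars went the other way, from -0.62 at day 3 to -0.10 at day 10. The median over all genes was 0.28 in this contrast.

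Between the lines, 1 member was higher in Dazl-GFP, beside 1.09% of all genes, and 0 were lower, beside 1.61%. Gars was higher in Dazl-GFP by 1.47-fold over the 6 pairs of arrays (log2 0.55, SE 0.10, adjusted p = 0.0392), and its Dazl-GFP array was the higher of the pair in all 6 groups. Nars had 0.56 (SE 0.14, adjusted p = 0.0882) and was likewise higher on the Dazl-GFP array in all 6 groups. With the slide as a block the value of Gars was 0.40 (adjusted p = 0.424, and 0.0082 to 0.819 over all alternatives). It passed without either serum-free array of day 10 and did not pass without any 1 of the other 10 arrays.

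The 14 genes listed as partners of tRNA charging include the scaffold proteins of the complex, Aimp1, Aimp2 and Eef1e1, the tRNA exporter Xpot, and the mitochondrial amidotransferase subunits Qrsl1, Gatb and Gatc. Of the 14, 0, 3 and 0 were lower in serum-free medium at days 0, 3 and 10, and 0 were higher. At day 3, 13.7% of all genes were lower. The 3 at day 3 were Sepsecs, which completes selenocysteine tRNA (-1.15, SE 0.23, adjusted p = 0.0151), Dtd1, which removes D-amino acids from tRNA (-0.80, SE 0.15, adjusted p = 0.0131), and Aarsd1, an alanyl-tRNA editing protein (-0.69, SE 0.16, adjusted p = 0.0212). Their medians were -0.01, -0.36 and -0.03. Of the complex scaffolds, Eef1e1 had -0.75 at day 3 (adjusted p = 0.0551) and Aimp1 -0.54 (adjusted p = 0.13), and neither was called.

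The array carried 32 further measured probes for 21 of the members. Their arm change had the sign of the probe used in 20 of 32 at day 0, 15 of 32 at day 3 and 27 of 32 at day 10. Testing every probe by itself and counting a gene when any of its probes passed gave 12 members at day 3 and 3 at day 10. The share of all genes counted by that rule is not given here. At day 3, 7 of the 12 passed as lower (the 6 named above and Tars2) and 6 as higher (Eprs, Farsa, Hars, Iars, Iars2 and Lars), with Farsa in both directions. The 0 members higher at day 3 therefore hold for the probes used and not for all probes. Whether these shares differ between the days was not tested.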

How the data were processed

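Total RNA of 12 samples was hybridised to 1-colour Agilent arrays. Per the file headers, the authors' scanner software (Agilent Feature Extraction) subtracted background and detrended each array to give the deposited intensity of each spot. The authors' deposited table holds ratios of background-subtracted signal to the array's median over all spots, with a floor per array. Log2 of the deposited intensity minus the array's 75th percentile was used here, without control spots. Probes were named by RefSeq accession, else by the authors' table, else by the scanner files, and the probe with the highest mean stands for a gene. Genes seen well above background on 2 or more arrays entered limma 3.58.1 in R 4.3.3, fitted with 6 groups and the cell line as terms. The same lines were used in every group, so the line pairs the arrays: deviations of same-line arrays correlated at -0.0474 to 0.573 over 15 pairs of groups (median 0.156).

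Members past 0.05 that moved the same way in both lines are described as changed, and values per array are given for the 12 with the smallest adjusted p. The members and lists were chosen with earlier results of these data known. Alternatives were quantile normalization, normexp (also with outlying local backgrounds replaced), the authors' table, no filter, no line block, slide as a block, all probes and leaving out each array. The script was tested on simulated data. Promoters are RefSeq's, on GRCm38.p6.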

Additional observations from a re-analysis of the deposited data

Results flagged for a closer look

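For 3 synthetase genes the difference between the arms was itself different at day 10 and at day 3, by a test of that difference in the limma fit that was added after the values were seen. Farsa, a subunit of the phenylalanine enzyme, had 1.37 (SE 0.28, adjusted p = 0.0374), going from an arm change of -0.86 at day 3 to 0.51 at day 10. Another probe of Farsa goes the other way, from 1.19 at day 3 (adjusted p = 0.00546) to 0.48 at day 10, so the result depends on the probe. Cars2, for cysteine in mitochondria, had 0.91 (SE 0.21, adjusted p = 0.0429), from -0.02 to 0.90. Aars2, for alanine in mitochondria, had 0.85 (SE 0.22, adjusted p = 0.0498), from -0.75 to 0.10. All 3 had the same sign in both lines. No slide holds both arms at day 10, so there is no value within a slide, and this contrast was not fitted with the slide as a block or under the other alternatives.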

How the results depend on the processing

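Of the 16 calls of synthetase genes, none changed sign under the alternatives that kept the same probe, while another probe of Farsa passed as higher at day 3 (1.19, adjusted p = 0.00546). The day 10 minus day 3 contrast was not among them. Quantile normalization kept 15, normexp with replaced local backgrounds (chosen after seeing the data) 16, the values of the authors 11, no filter on dim genes 11 and the slide as a block 2, while normexp on the deposited backgrounds kept 0. Without the line as a block, the replicate block, 9 of 15 calls were kept, with 0 members called at day 0, 5 at day 3 and 2 at day 10 between the arms, and 0 (FBS) and 2 (serum-free) from day 0 to day 3. Normexp gave 0 members in every comparison. With replaced backgrounds 3 members were called between the arms at day 0, 9 at day 3 and 6 at day 10, 8 and 2 from day 0 to days 3 and 10 in FBS, 6 for the day 3 change between arms and 2 between lines. Of all 20791 genes, 616 were called higher and 356 lower between the arms at day 0 under that setting. At day 3 these were 1892 and 7509, and at day 10 788 and 845. In FBS 6861 rose and 1415 fell to day 3, and 1962 and 1298 to day 10. For the day 3 change between arms 463 were higher and 2620 lower, and between lines 315 and 981. The slide as a block gave 0 between the arms at every day, 0 for the change to day 3 in FBS and 0 between lines. No filter gave 0 between the arms at day 0, 1 for the change to day 3 in FBS, 2 for that in serum-free medium and 0 between lines. Testing all probes gave 12 between the arms at day 3 (7 lower and 6 higher, Farsa in both), 6 and 6 from day 0 to days 3 and 10 in FBS, 5 to day 3 in serum-free medium and 3 between lines. To day 3, Aars rose in both arms and the other members so counted fell. The authors' table gave 4 between the arms at day 3 and 1 for the change to day 3 in serum-free medium. Leaving out each array in turn gave 0 to 0 members between the arms at day 0, 0 to 6 at day 3 and 0 to 3 at day 10; 0 to 1 and 0 to 1 from day 0 to days 3 and 10 in FBS; 0 to 6 and 0 to 0 in serum-free medium; 0 to 1 and 0 to 0 for the change between arms; and 0 to 1 between lines. An arm left with 1 array was assumed to vary like the others. The share of called genes that were higher moved with the scaling: at day 0 from 54.1% to 68.5% with the authors' table; at day 3 from 38.9% to 51.7% with the authors' table, an even split (2225 higher, 2224 lower) with quantile normalization and 20.1% with replaced backgrounds; at day 10 from 35.7% to 21.8% and 48.3% with the first and last of these. The median of all genes at day 0 went from -0.02 to 0.14 with the authors' table and to -0.43 with normexp, and at day 3 from -0.22 to -0.10 and, by quantile normalization, to -0.08. With 1 array per line and group, small changes are beyond what these arrays can show.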
